A study of Saccharomyces cerevisiae with 4 samples.

Results

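The 52 genes described here build and steer the actin cytoskeleton, the site of bud growth and the septin ring of budding yeast. They were taken by name from a list of actin, polarity and septin genes, through the coding probes of the arrays, and are 52 of 5738 genes with such a probe. The samples came from W303 yeast in log phase in YPD at 30°C. The strain of 1 group carried Whi3, an RNA-binding protein, fused to a TAP tag and made from its own promoter (Whi3-TAP). The strain of the other group carried a tagged Whi3 from which the RNA recognition motif had been deleted (Whi3-dRRM-TAP), so the tag is common to both groups and no untagged strain is among the samples. On each array, Cy3-labelled cDNA of the RNA that came down on IgG resin was set against Cy5-labelled cDNA of total RNA from the same strain. Each group had 2 arrays, which the labels call biological replicates, and each group is 1 strain.

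Budding yeast grows a daughter cell at a single site. Landmark proteins left by earlier divisions recruit the Ras-like GTPase Rsr1, which leads the GTPase Cdc42 and its exchange factor Cdc24 to that site. Active Cdc42 then directs formins to spin actin cables, along which type V myosins carry vesicles and some mRNAs, while septins assemble a ring at the bud neck and actin patches drive endocytosis. Whi3 is known for holding back the G1 cyclin gene CLN3, and bud emergence follows the passage through G1. The comparison therefore asks which mRNAs of the budding machinery came down more, or less, with Whi3 when its RNA-binding motif was present.

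The main quantity is the net log ratio, the log2 ratio of immunoprecipitate to total RNA with Whi3-TAP less the same ratio with Whi3-dRRM-TAP, computed for each of 2 experiments and then averaged. Every array is centred by its normalization, so the value places a gene among the other mRNAs of the sample and is not an amount. Signal counted as above background when the foreground of a gene's spots exceeded their background, on average, by over 2 background SDs. CLN3 had 1.84 and 1.70 over total RNA on the Whi3-TAP arrays and 0.26 and 0.32 on the Whi3-dRRM-TAP arrays. WHI3 itself was higher in total RNA of Whi3-TAP by 0.78 and 0.60 (log2), beside a median of 0.31 over all genes, and the share of its probe that lies in the deleted part is unknown, so the gene is no check of the strains. Whi3-dRRM-TAP array 1 stood apart, with 56.3% of the 364 spots of the 52 genes kept after scanner flags, against 86.0% to 90.4% on the other arrays. All spots of MYO4, BNR1, BUD6, CLA4, AXL1 and SLA2 were flagged there, which left 46 of the 52 measured on every array, among 4295 genes in all. The immunoprecipitate exceeded background for 42 and 45 of these 46 genes on Whi3-TAP arrays 1 and 2, but for only 9 and 29 on those of Whi3-dRRM-TAP. Over all genes the shares were 89.0% and 99.3% in the former group and 16.6% and 65.5% in the latter. Neither Whi3-dRRM-TAP immunoprecipitate exceeded background for 16 of the 46 genes (33.4% of all genes). Total RNA did so on no array for 9 (27.2% of all genes), and 10 rested on a single spot on at least 1 array (24.7% of all genes).

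**Figure D1:**
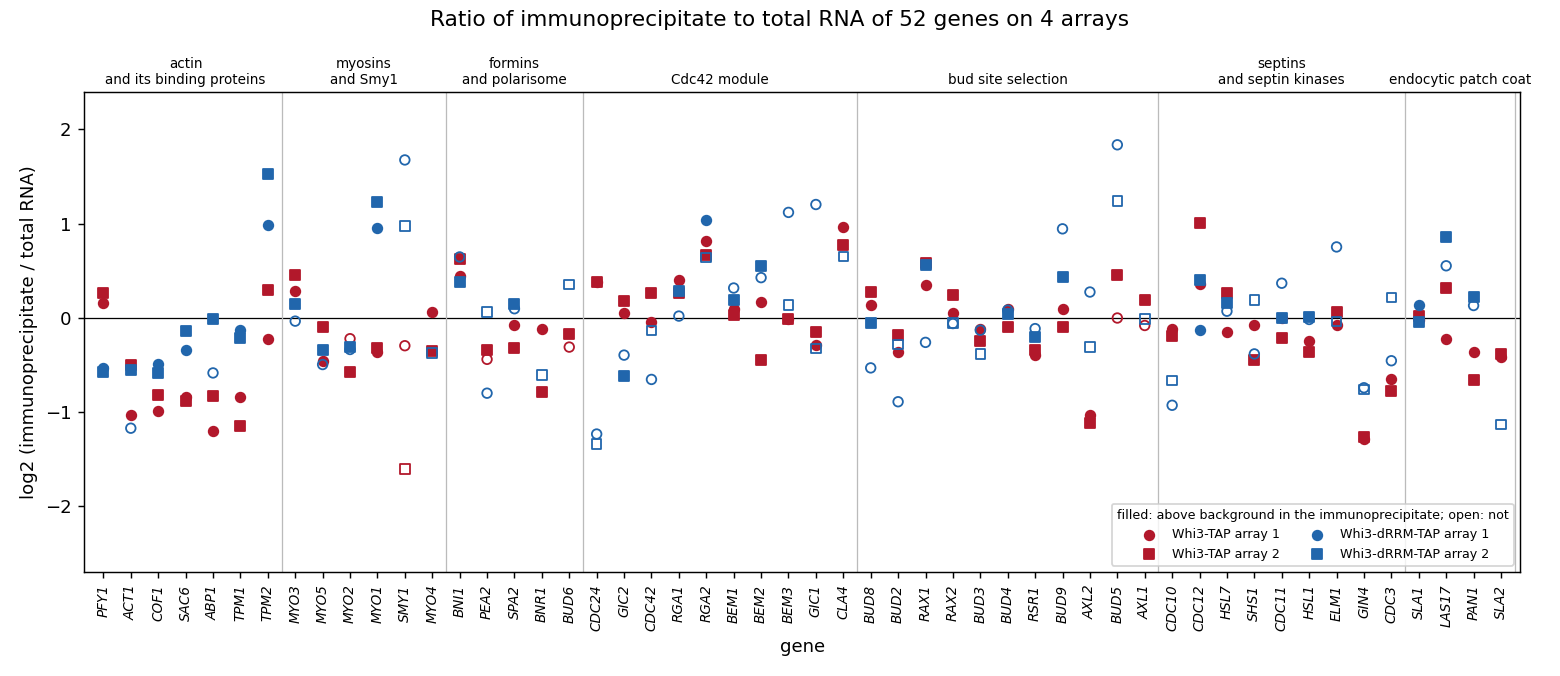
Log2 ratio of immunoprecipitate to total RNA (vertical axis) of the 52 genes (horizontal axis, grouped by role), with 1 point per array and filled points for genes above background in the immunoprecipitate. TPM2 and MYO1 have both Whi3-dRRM-TAP arrays (blue) well above both Whi3-TAP arrays (red), from 0.95 to 1.53 against -0.36 to 0.29, while CDC24 has the opposite order.

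Most genes of the budding machinery lay close to the bulk of mRNA. The median net log ratio of the 46 genes was -0.18 (-0.21 in experiment 1 and -0.14 in experiment 2), beside -0.09 for all 4295 genes. The middle of the distribution ran from -0.64 to 0.17 for these genes and from -0.49 to 0.33 for all genes (quartiles). The value was positive in both experiments for 14 of 46 genes (30.4%, against 32.4% of all genes) and negative in both for 21 (45.7%, against 41.2%). Values of experiments 1 and 2 correlated across the 46 genes (Pearson r = 0.75), and over all genes r was 0.63. The points share their arrays, and genes are not replicates.

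No gene of the budding machinery passed the blocked limma test in either direction (0 of 46, smallest adjusted p = 0.0678), and 0% of all genes did. At an unadjusted p under 0.05, 4 of 46 were higher (8.7%, against 12.8% of all genes) and 11 were lower (23.9%, against 16.5%). With the experiment left out as a block, limma called CDC24 higher and MYO1 lower, 2 of 46 (3.07% of all genes). The study took as targets the mRNAs a fixed number of SDs above the mean over genes, a limit of 1.05 here. CDC24 was the single gene of the 46 above it (5.01% of all genes), and SMY1, MYO1, BUD5 and TPM2 lay below the matching lower limit of -1.21 (5.05% of all genes). Both Whi3-TAP arrays lay above both Whi3-dRRM-TAP arrays for 8 of 46 genes (26.6% of all genes), and both lay below for 21 (34.2% of all genes). These shares of the 46 were 17.4% and 45.7%. Counts moved with single arrays: without Whi3-dRRM-TAP array 1 limma with no block called 3 of 52 genes (10.1% of all genes), without its array 2 it called 16 of 46 (34.8%, against 35.3% of all genes), and without either Whi3-TAP array it called 0 (0% of all genes). An arm with 1 array is assumed there to vary like the other arm.

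**Figure D2:**
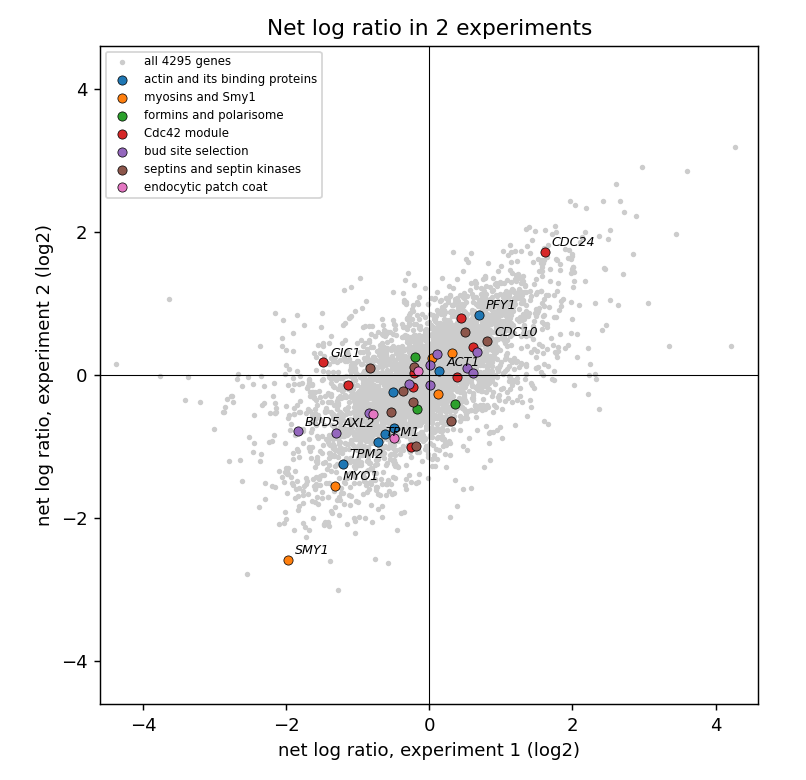
Net log ratio (log2) in experiment 1 (horizontal axis) and experiment 2 (vertical axis), with all 4295 genes in grey and the 46 genes coloured by role. CDC24 lies at the upper right at 1.61 and 1.72, MYO1, TPM2 and SMY1 at the lower left, and GIC1 has opposite signs in the experiments (-1.49 and 0.18).

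Among actin and the proteins that bind it, the tropomyosins, fimbrin, cofilin and Abp1 had negative net log ratios in both experiments and profilin and actin positive ones. The median of the 7 genes was -0.62, against -0.09 for all genes. It was below the median of all genes under 12 of 14 alternatives, those with 1 array left out among them. Under median centring (-0.18 against -0.21 for all genes, with 3 of the 7 positive) and in the series matrix (-0.45 against -0.48) it was not. Leaving out the block or fitting an intensity trend in the prior leaves the estimates unchanged, so those alternatives could not move the median. None of the 7 passed the blocked limma test. A low median was not particular to this group. It was -0.66 for the 3 measured genes of the endocytic coat and -0.29 for the 9 septin and septin kinase genes. Both lay below the median of all genes under 14 of 14 alternatives. The remaining groups did so under 2 to 8 of 14.

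TPM2 (YIL138C, chromosome 9) encodes the minor tropomyosin, which coats actin cables. Its log2 ratio to total RNA was -0.23 and 0.29 on Whi3-TAP arrays 1 and 2, and 0.98 and 1.53 on Whi3-dRRM-TAP arrays 1 and 2. The groups did not overlap, and both Whi3-dRRM-TAP arrays were the high ones. This gave a net log ratio of -1.22 ± 0.02 (SD, n = 2 experiments), a ratio of 0.428 (limma adjusted p = 0.0721). TPM2 was above background in both channels of all 4 arrays on 10 or 11 spots per array, and under median centring its net log ratio was -0.62, inside the lower SD limit of -1.38 that applies there. TPM1 (YNL079C, chromosome 14), the major tropomyosin, had -0.85 and -1.15 on the Whi3-TAP arrays against -0.13 and -0.22 on the Whi3-dRRM-TAP arrays. Here too the groups did not overlap, with a net log ratio of -0.82 ± 0.15 (adjusted p = 0.103, limma).

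PFY1 (YOR122C, chromosome 15) encodes profilin, which supplies actin monomers to formins. It was the highest gene of this group, with log2 ratios of 0.15 and 0.27 on the Whi3-TAP arrays and -0.54 and -0.58 on the Whi3-dRRM-TAP arrays. The net log ratio was 0.77 ± 0.11, or 1.70-fold (limma adjusted p = 0.110), and fell to 0.32 under print-tip loess. All 4 arrays were above background in both channels, so profilin and the tropomyosins differed in sign at well-measured spots. ACT1 (YFL039C, chromosome 6) encodes actin and had -1.03 and -0.50 with Whi3-TAP and -1.17 and -0.56 with Whi3-dRRM-TAP. The groups overlapped, and both experiments were close to 0 (0.14 and 0.06). The mean of 0.10 ± 0.06 turned negative under print-tip loess (-0.12) and with no background correction (-0.19). It also did so without Whi3-dRRM-TAP array 1 (-0.21) or Whi3-TAP array 2 (-0.17). In the series matrix it was -0.09, beside -0.48 for the median of all genes. In the plain ratios ACT1 lay below the bulk of mRNA on every array. The patch protein gene ABP1 had -0.72 ± 0.14, the fimbrin gene SAC6, whose product bundles filaments, -0.62 ± 0.18, and the cofilin gene COF1, whose product severs them, -0.37 ± 0.19.

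**Figure D3:**
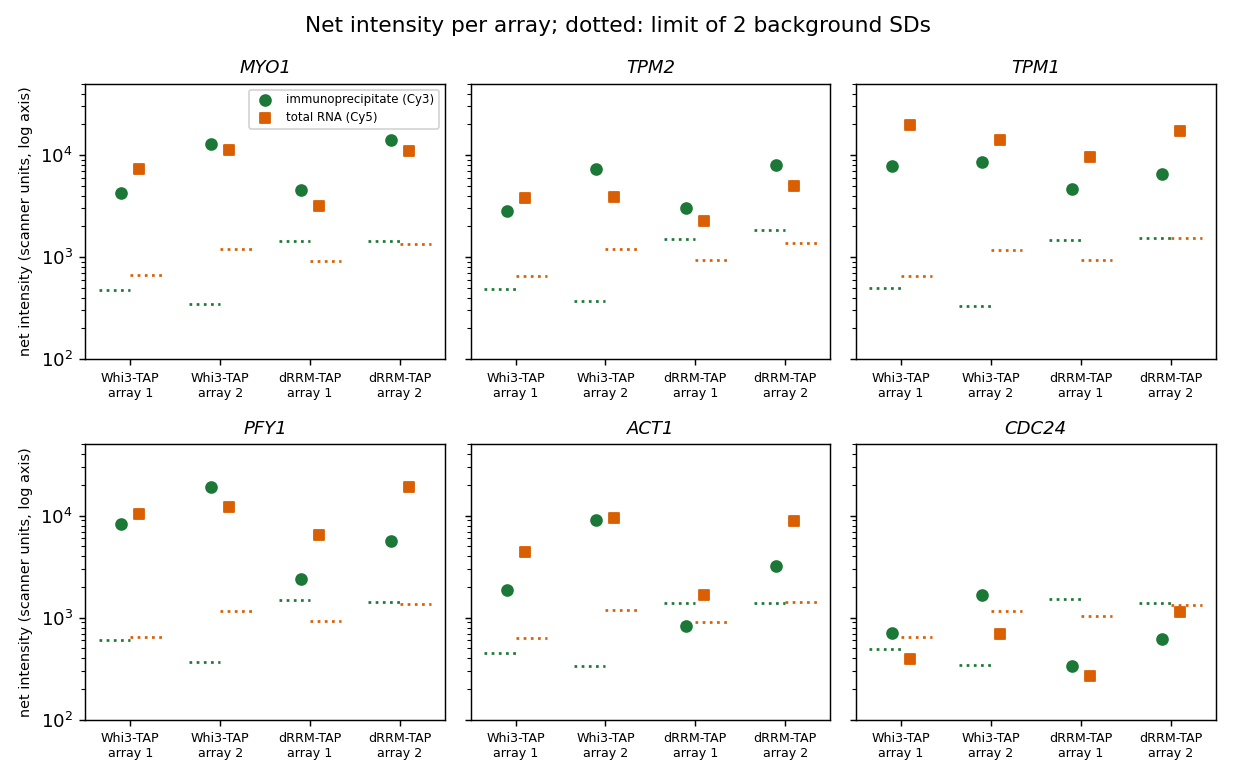
Net intensity (foreground minus background in scanner units, log axis) of 6 genes in the immunoprecipitate (green circles) and in total RNA (orange squares) of each array, with the limit of 2 background SDs dotted. MYO1, TPM2, TPM1 and PFY1 lie above the limit in both channels of every array, ACT1 lies below it in the immunoprecipitate of Whi3-dRRM-TAP array 1 (827), and CDC24 lies below it in total RNA of every array.

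The myosins split. MYO1 (YHR023W, chromosome 8), the type II myosin of the contractile ring, had -0.36 and -0.32 on the Whi3-TAP arrays and 0.95 and 1.22 on the Whi3-dRRM-TAP arrays. The groups were far apart compared with the arrays within each. Its net log ratio was -1.43 ± 0.17, a ratio of 0.371, which was the 127th lowest of 4295 genes (limma adjusted p = 0.0706 with the block and 0.0426 with no block). MYO1 was measured on 10 spots of every array and was above background throughout. In scanner units the immunoprecipitate gave 4279 and 12838 for MYO1 in Whi3-TAP and 4532 and 14020 in Whi3-dRRM-TAP, arrays 1 and 2 in turn. Total RNA gave 7237 and 11122 in Whi3-TAP and 3139 and 10824 in Whi3-dRRM-TAP. Before normalization the immunoprecipitate of MYO1 was thus about as bright in both groups. After normalization between arrays its immunoprecipitate differed by -0.87 and its total RNA by 0.56 (log2, Whi3-TAP minus Whi3-dRRM-TAP), where the medians of all genes were 0.23 and 0.31. Under median centring the net log ratio of MYO1 was -0.95, inside the lower SD limit of -1.38 that applies there.

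The type I myosin genes MYO3 and MYO5, whose products work at endocytic patches, and the type V myosin gene MYO2, whose product carries vesicles along cables, lay near 0. MYO3 (YKL129C) had 0.28 and 0.45 on the Whi3-TAP arrays and -0.04 and 0.15 on the Whi3-dRRM-TAP arrays. Its net log ratio of 0.31 ± 0.01 was the highest of the myosins, but it was 0.00 under median centring and -0.31 in the series matrix. The medians of all genes there were -0.21 and -0.48. MYO5 had 0.14 ± 0.14 and MYO2 -0.07 ± 0.26. MYO4, the type V myosin that carries ASH1 mRNA into the bud, was measured by its coding probe on 3 arrays, with 0.06 and -0.35 in Whi3-TAP and -0.38 on Whi3-dRRM-TAP array 2. The net log ratio of experiment 2 alone was 0.02. A separate probe for the 3′ UTR of MYO4 gave 1.13 in experiment 1 and -0.11 in experiment 2, with no Whi3-dRRM-TAP immunoprecipitate above background. The probes for the 3′ UTRs of MYO2, MYO3 and MYO5 lacked a value on at least 1 array.

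SMY1 (YKL079W, chromosome 11) encodes a kinesin-related partner of Myo2. Its log2 ratios were -0.30 and -1.61 with Whi3-TAP and 1.68 and 0.97 with Whi3-dRRM-TAP. The net log ratio of -2.28 ± 0.43 was the 2nd lowest of all genes (limma adjusted p = 0.0678). However, SMY1 was above background in neither channel of any array and rested on 1 spot on 3 arrays, so the value has no fold. With flagged spots kept it was -0.84, and with no background correction -0.56.

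Formins and the polarisome, the complex that holds them at the bud tip, had net log ratios from -0.32 to 0.02 in the 3 genes measured on every array. BNI1 (YNL271C), the formin of the bud tip, had 0.44 and 0.62 with Whi3-TAP and 0.65 and 0.38 with Whi3-dRRM-TAP. All of its arrays were above 0 and the groups overlapped, with a net log ratio of 0.02 ± 0.32. It turned negative under 5 alternatives, down to -0.25 in the series matrix, where the median of all genes was -0.48. SPA2 (YLL021W), the polarisome scaffold, had -0.08 and -0.32 with Whi3-TAP and 0.10 and 0.15 with Whi3-dRRM-TAP. Both Whi3-dRRM-TAP arrays were above both Whi3-TAP arrays, by little, and the net log ratio was -0.32 ± 0.21 (limma adjusted p = 0.367). In the series matrix it was -1.24, beside -0.48 for the median of all genes, and limma called it lower there (adjusted p = 0.0494). PEA2, another polarisome gene, had -0.02 ± 0.54 with opposite signs in the experiments. It rested on 1 spot on Whi3-dRRM-TAP array 1. Total RNA of PEA2 exceeded background on no array, and its immunoprecipitate on Whi3-TAP array 2 alone. BNR1, the formin of the bud neck, had -0.11, -0.78 and -0.61 on Whi3-TAP arrays 1 and 2 and Whi3-dRRM-TAP array 2, and BUD6, a helper of formins, had -0.31, -0.17 and 0.35 on the same arrays. Total RNA of BNR1 and BUD6 exceeded background on none of these arrays. Their immunoprecipitate did not exceed it on Whi3-dRRM-TAP array 2, where BNR1 had 1 spot, so these ratios rest on undetected signal.

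In the Cdc42 module, the GTPase and its exchange factor were positive. Of its negative regulators, BEM2, BEM3 and RGA2 were negative on average and RGA1 was positive. For BEM3, RGA2 and RGA1 the SD between experiments exceeded the value itself. BEM3 rested on 1 spot on Whi3-dRRM-TAP array 1, and its immunoprecipitate exceeded background on neither Whi3-dRRM-TAP array. CDC24 (YAL041W, chromosome 1), which encodes the exchange factor that activates Cdc42, had 0.38 and 0.38 on the Whi3-TAP arrays and -1.24 and -1.34 on the Whi3-dRRM-TAP arrays. The arrays of each group were nearly equal and the groups were far apart. Its net log ratio was 1.67 ± 0.08, the 53rd highest of 4295 genes (limma adjusted p = 0.0678 with the block and 0.0374 with no block). Its immunoprecipitate exceeded background on both Whi3-TAP arrays but on neither Whi3-dRRM-TAP array, where it rested on 1 spot each, and its total RNA did so on no array. The value therefore has no fold. With flagged spots kept the net log ratio was 0.75, with no background correction 0.55 and under median centring 1.00, below the SD limits of 0.90, 0.72 and 1.01 that apply there. CDC24 was not analysed in the series matrix, where a value on all arrays was required.

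CDC42 (YLR229C, chromosome 12) had -0.05 and 0.26 with Whi3-TAP and -0.66 and -0.14 with Whi3-dRRM-TAP. Both Whi3-TAP arrays were higher than both Whi3-dRRM-TAP arrays, and the net log ratio was 0.50 ± 0.15 (limma adjusted p = 0.202). The series matrix gave -0.49, beside -0.48 for the median of all genes. Neither Whi3-dRRM-TAP immunoprecipitate was above background for CDC42, so no fold is given. GIC1 and GIC2 encode related effectors that link Cdc42 to actin and the septins. GIC1 (YHR061C) had -0.29 and -0.15 with Whi3-TAP, and 1.20 and -0.33 with Whi3-dRRM-TAP, where the high value came from 1 of 12 spots on array 1. Its net log ratio was -0.66 ± 1.18, and it was 0.11 without that array and 0.09 with flagged spots kept. GIC2, on 9 to 12 spots per array, had 0.62 ± 0.25. The GTPase-activating protein genes BEM3 (-0.64 ± 0.70), BEM2 (-0.63 ± 0.53) and RGA2 (-0.10 ± 0.17) were negative on average, while RGA1 had 0.18 ± 0.29, and the scaffold gene BEM1 -0.20 ± 0.04. CLA4, encoding a kinase activated by Cdc42, had a value on 3 arrays, with 0.96 and 0.77 in Whi3-TAP and 0.65 on Whi3-dRRM-TAP array 2. Its total RNA exceeded background on none of these arrays, and its immunoprecipitate did so only with Whi3-TAP, so the ratios rest on undetected signal.

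Bud site genes include those for the bipolar landmarks Bud8 and Bud9, which had opposite signs. BUD8 (YLR353W, chromosome 12), the landmark of the pole away from the birth site, had 0.14 and 0.28 with Whi3-TAP and -0.53 and -0.05 with Whi3-dRRM-TAP, each on 12 spots. The groups did not overlap and the net log ratio was 0.50 ± 0.24 (limma adjusted p = 0.219). BUD9, the landmark of the birth pole, had -0.69 ± 0.23. On Whi3-dRRM-TAP array 1 the immunoprecipitate exceeded background for neither landmark gene. Total RNA of BUD9 did not exceed it there either, and only 4 spots of BUD9 were kept. The difference between the landmarks, BUD8 minus BUD9, was 1.51 in experiment 1 and 0.86 in experiment 2. It was not tested beyond these values.

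BUD5 (YCR038C, chromosome 3) encodes the exchange factor of Rsr1. Its log2 ratios were 0.00 and 0.45 with Whi3-TAP and 1.84 and 1.24 with Whi3-dRRM-TAP, so the Whi3-dRRM-TAP arrays were the higher ones. The net log ratio was -1.31 ± 0.75 (limma adjusted p = 0.102), and it was -0.40 with no background correction and -0.64 with flagged spots kept. Its immunoprecipitate exceeded background on Whi3-TAP array 2 alone and its total RNA on no array. In the RefSeq annotation BUD5 overlaps MATALPHA2, but the paper lists both tagged strains as W303a, which is MATa. What other transcripts the double-stranded probe read was not tested. AXL2, encoding the membrane protein of the axial site, had -1.06 ± 0.36, and here too no Whi3-dRRM-TAP immunoprecipitate exceeded background. The other values were 0.32 ± 0.31 for BUD2, the GTPase-activating protein of Rsr1, -0.20 ± 0.11 for RSR1, 0.32 ± 0.41 for RAX1 and 0.20 ± 0.13 for RAX2. BUD2 and RAX2 rested on 1 spot on Whi3-dRRM-TAP array 1. Their total RNA exceeded background on no array and their immunoprecipitate on neither Whi3-dRRM-TAP array. The axial landmark genes BUD3 and BUD4 had 0.07 ± 0.09 and -0.06 ± 0.10. For BUD3, neither Whi3-dRRM-TAP immunoprecipitate exceeded background. AXL1 had -0.08 and 0.19 in Whi3-TAP and -0.01 on Whi3-dRRM-TAP array 2. Its total RNA exceeded background on none of these arrays, and its immunoprecipitate on Whi3-TAP array 2 alone.

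The septins, whose products assemble together into rods, did not share a direction. CDC10 (YCR002C, chromosome 3) had -0.12 and -0.19 with Whi3-TAP and -0.93 and -0.67 with Whi3-dRRM-TAP. The groups did not overlap and the net log ratio was 0.64 ± 0.24 (limma adjusted p = 0.152). In the series matrix it was -0.01, beside -0.48 for the median of all genes. Its immunoprecipitate exceeded background on neither Whi3-dRRM-TAP array. CDC3 (YLR314C, chromosome 12) was the lowest septin gene, with -0.65 and -0.78 in Whi3-TAP and -0.46 and 0.22 in Whi3-dRRM-TAP. Its net log ratio was -0.59 ± 0.57, and 1 spot carried it on Whi3-dRRM-TAP array 1. Neither Whi3-dRRM-TAP immunoprecipitate exceeded background for CDC3, and its total RNA did so on Whi3-TAP array 1 alone. CDC12 had 0.55 ± 0.08, with a median over its spots of 41.5% saturated pixels in the immunoprecipitate of Whi3-TAP array 2. The septin genes CDC11 and SHS1 had -0.29 ± 0.11 and -0.17 ± 0.67. Of the genes for kinases at the neck, GIN4 had -0.53 ± 0.02, ELM1 -0.37 ± 0.66 and HSL1 -0.30 ± 0.10, and HSL7, encoding a partner of Hsl1, had -0.05 ± 0.23. For SHS1, GIN4 and ELM1, neither Whi3-dRRM-TAP immunoprecipitate exceeded background, and total RNA of ELM1 did so on no array.

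Of the genes of the endocytic coat, PAN1 and LAS17 had negative net log ratios in both experiments, SLA1 was near 0 and SLA2 was positive in experiment 2, its only one with a value. PAN1 (YIR006C, chromosome 9), an activator of actin assembly at patches, had -0.37 and -0.66 with Whi3-TAP and 0.13 and 0.22 with Whi3-dRRM-TAP. The groups did not overlap, with a net log ratio of -0.68 ± 0.27, a ratio of 0.622 (limma adjusted p = 0.144). SLA1 (YBL007C, chromosome 2), its coat partner, had -0.02 and 0.01 against 0.13 and -0.04, so that the groups overlapped. The mean of -0.05 ± 0.15 was positive under 5 alternatives, up to 0.49 under median centring. LAS17, encoding the yeast WASP, had -0.66 ± 0.17. SLA2, which ties the coat to actin, had -0.42 and -0.39 in Whi3-TAP and -1.13 on Whi3-dRRM-TAP array 2, a net log ratio of 0.74 in experiment 2. On that Whi3-dRRM-TAP array its immunoprecipitate did not exceed background, on 2 spots. With flagged spots kept, 2 of the 4 genes were positive.

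**Figure D4:**
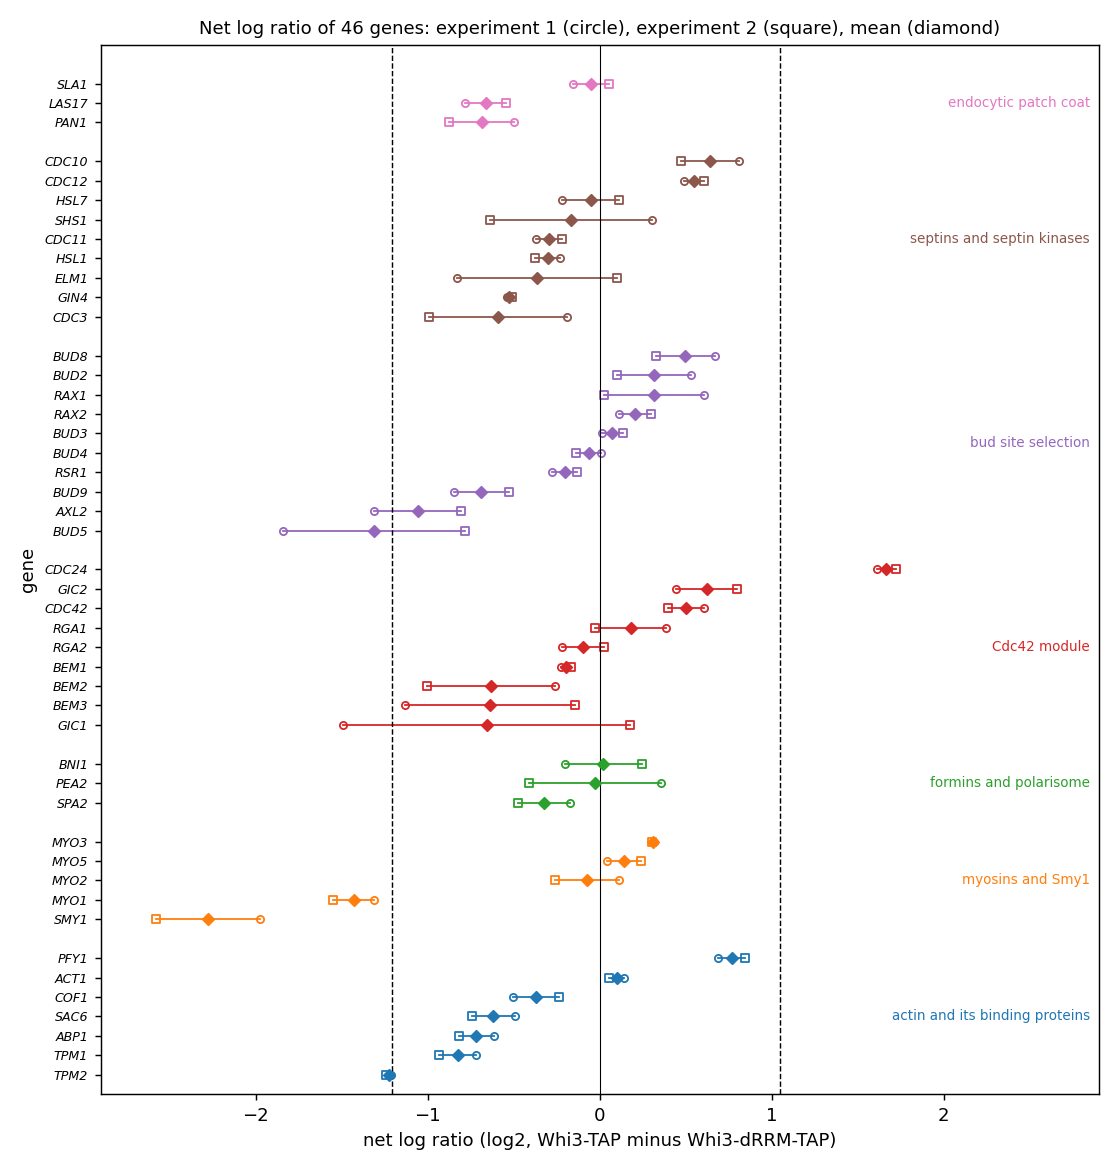
Net log ratio (log2, horizontal axis) of the 46 genes (vertical axis, by role), with experiment 1 as a circle, experiment 2 as a square and their mean as a diamond. The dashed lines mark the SD limits of 1.05 and -1.21, past which lie CDC24 on the right and SMY1, MYO1, BUD5 and TPM2 on the left.

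Close relatives among these genes could be set side by side in 5 pairs measured on every array. TPM1 was above TPM2 by 0.49 and 0.31 in the experiments, and MYO3 above MYO5 by 0.27 and 0.06. GIC1 was below GIC2, with differences of -1.94 and -0.62, of which the first includes the single-spot value of GIC1. RGA1 minus RGA2 was 0.60 and -0.05. Whether a probe also read the mRNA of the related gene was not tested.

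The log2 ratio to total RNA was also tested against 0 within each group, which asks which mRNAs the tagged protein and the resin carried beyond the bulk. The dyes had 1 orientation on all arrays, so a dye effect stays in this ratio, although it cancels in the net log ratio. With Whi3-TAP, limma called 1 of 46 genes higher (10.4% of all genes) and 6 lower (8.94% of all genes). RGA2, a GTPase-activating protein of Cdc42, was higher at 0.74 ± 0.11 (adjusted p = 0.0378). GIN4 was lower at -1.28 ± 0.01 (limma adjusted p = 0.0110), as were AXL2, ABP1, TPM1, COF1 and SAC6, between -1.08 and -0.86. With Whi3-dRRM-TAP, 5 were higher (13.6% of all genes) and 5 lower (9.22% of all genes). The higher ones were BUD5 at 1.54 ± 0.42, SMY1 at 1.32 ± 0.50, TPM2 at 1.26 ± 0.39, MYO1 at 1.09 ± 0.19 (limma adjusted p = 0.0145) and RGA2 at 0.84 ± 0.28. Lower were CDC24 (-1.29 ± 0.08), ACT1, CDC10, GIN4 and PFY1. For BUD5, SMY1, CDC24, CDC10 and GIN4, 5 of these 10, neither Whi3-dRRM-TAP immunoprecipitate exceeded background, so their ratios there rest on undetected signal. RGA2 was called higher in both groups, and its net log ratio was -0.10. MYO1 and TPM2, called higher with Whi3-dRRM-TAP, had -0.34 ± 0.03 and 0.03 ± 0.37 with Whi3-TAP. Without either Whi3-TAP array the count for Whi3-TAP was 0 (0% of all genes), and without Whi3-dRRM-TAP array 1 or 2 it was 16 (38.4% and 43.4% of all genes). For Whi3-dRRM-TAP the count of 10 (22.9% of all genes) became 0 without Whi3-TAP array 1 (1.68%), 2 without Whi3-TAP array 2 (3.77%), 8 without Whi3-dRRM-TAP array 1 (23.3%) and 17 without Whi3-dRRM-TAP array 2 (42.1%).

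The Cy5 channel was compared between the strains to see whether a net log ratio went with a difference in the level of the mRNA itself. Limma called 0 of 46 genes (1.91% of all genes were higher and 0.0931% lower, smallest adjusted p of the 46 = 0.0997, for SMY1, which was above background on no array). The median difference, Whi3-TAP minus Whi3-dRRM-TAP, was 0.37 for the 46 genes and 0.31 for all genes (log2). It was positive in both experiments for 38 of 46 (82.6%, against 62.8% of all genes), but with flagged spots kept the medians were 0.07 and 0.00. TPM2 differed by 0.16 ± 0.19 and PFY1 by -0.02 ± 0.49, both smaller in size than the median of all genes. ACT1 differed by 0.62 ± 0.38 and MYO1 by 0.56 ± 0.26, and these 4 genes were above background in total RNA of every array. For CDC24 and BUD5, whose total RNA exceeded background on no array, a difference in mRNA level was not measurable. Fewer cells at a stage of the cycle and less RNA per cell cannot be told apart in such cultures.

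A further 81 genes of the same machinery, among them the Arp2/3 complex, exocyst, cytokinesis and mRNA transport genes, were set beside the 52. Of these, 64 were measured on every array, and their median net log ratio was 0.03. Values were positive in both experiments for 23 (35.9%, against 32.4% of all genes) and negative in both for 22 (34.4%, against 41.2%). None passed the blocked limma test (0 of 64), while at an unadjusted p under 0.05 limma had 7 higher (10.9%, against 12.8% of all genes) and 9 lower (14.1%, against 16.5%). Above the SD limit lay 5 of the 64 (7.81%, against 5.01% of all genes). VRP1, encoding verprolin, a partner of the yeast WASP, had 1.32 ± 1.05 on 1 spot of at least 1 array. ASH1, the mRNA that Myo4 carries into the bud, had 1.17 ± 0.18 on 12 spots of every array, beside 0.02 for MYO4 in experiment 2. RVS167, encoding an amphiphysin of the patch, had 1.15 ± 0.20, the Arp2/3 subunit gene ARC18 1.13 ± 0.09, and MIH1, encoding the phosphatase that activates the mitotic kinase, 1.07 ± 0.15. Below the lower limit lay 2 of the 64 (3.12%, against 5.05% of all genes), ENT2, encoding an epsin, at -1.68 ± 0.36 on 1 spot of at least 1 array, and BUD14, a regulator of formins, at -1.26 ± 0.04. Limma with no block called ENT2 alone among these 64 genes (adjusted p = 0.0470).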

How the data were processed

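Immunoprecipitated and total RNA were measured on 4 homemade yeast arrays of double-stranded probes, with cDNA primed by oligo-dT. Per the file headers, the deposited tables give each spot's foreground and background intensity in both channels and the percent of saturated pixels. Log2 ratios per probe, which the authors made by background subtraction, loess and averaging of spots, were deposited as a series matrix. It runs as immunoprecipitate over total RNA (r = 0.76 to 0.95 with the scanner values), its column medians were 0.21 to 1.08 so its centring is unknown, and it served as an alternative. The build behind the probe annotation is not given in the sources consulted, and positions are left out.

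Spots with a negative GenePix flag were left out. Intensities were corrected by normexp (offset 50), normalized by loess within arrays and averaged over spots in limma 3.58.1 (R 4.3.3, with version 1.17.8 of data.table and 2.0.0 of jsonlite). A value on all 4 arrays was required. The net log ratio was tested with lmFit and eBayes (2-sided, Benjamini-Hochberg over 4295 genes at 0.05) with the experiment as a block, because the study subtracted the control within each experiment. Deviations of same-numbered arrays had r = 0.218. Ratios within groups were tested against 0 with no block. Channels were compared after Aquantile normalization. The fit was tested on simulated data. SDs are over 2 arrays or experiments, whose number limits the precision. All 52 genes matched RefSeq names.

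The 52 genes, their role groups and the 81 further genes were chosen with earlier results of these data known. Given on every array were ACT1, CDC42, MYO4, SMY1, the highest and lowest gene of each role group and those past an SD limit, while TPM1 and the values of other genes on 3 arrays were added after values were seen. Plots used matplotlib 3.10.9 and pandas 2.3.3 under Python 3.11.15.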

Additional observations from a re-analysis of the deposited data

How the results depend on the processing

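Of the 46 genes, the blocked limma test called 0. The share of all genes called stands in brackets after each alternative. Without the block the test called 2 (3.07%), with an intensity trend in the prior 6 (12.3%), under median centring 1 (2.33%), with no background correction 9 (15.7%), with flagged spots kept 11 of 52 (18.3%), with dim genes left out 2 of 30 (15.1%), with the median over spots 4 (8.45%), in the series matrix 4 of 40 (13.3%) and with 1 array left out 0 to 16 (0% to 35.3%). Print-tip loess and plain background subtraction called 0 (0%). MYO1 and CDC24 were the calls without the block. No block was fitted within groups. The count above the SD limit, 1 (CDC24), became 2 under median centring and in the series matrix (PFY1 and CDC12 in both, without CDC24), 0 with no background correction, with flagged spots kept and with dim genes left out, and 1 with any array left out. The count below the lower limit, 4 (SMY1, MYO1, BUD5 and TPM2), became 2 with flagged spots kept (MYO1 and TPM2), 1 with dim genes left out (MYO1), 1 in the series matrix (AXL2, not among the 4), 3 under median centring (SMY1, BUD5 and AXL2), 3 with no background correction (TPM1, TPM2 and MYO1) and 2 to 4 with 1 array left out. The median of -0.18 became -0.0691 with flagged spots kept, -0.54 in the series matrix and -0.25 to -0.0927 with 1 array left out. Over all genes the median moved from -0.09 to -0.21 under median centring and -0.48 in the series matrix.

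Of the 17 genes followed through the alternatives, 7 turned sign under at least 1. ACT1 had -0.12 under print-tip loess, -0.19 with no background correction, -0.0861 in the series matrix and -0.21 to 0.41 with 1 array left out. BNI1 had -0.0702 under print-tip loess, -0.15 with the median over spots, -0.25 in the series matrix and -0.11 to 0.16 with 1 array left out. SLA1 had 0.26 under print-tip loess, 0.49 under median centring, 0.19 with flagged spots kept, 0.23 in the series matrix and -0.14 to 0.0362 with 1 array left out. MYO3 had -0.0027 under median centring and -0.31 in the series matrix, CDC42 -0.49 and CDC10 -0.0123 in the series matrix, and GIC1 0.0873 with flagged spots kept and -1.42 to 0.11 with 1 array left out. The median of all genes was -0.21 under median centring and -0.48 in the series matrix, so a sign there does not place a gene against the bulk. ACT1, BNI1, MYO3 and CDC10 lay above the median of all genes in the series matrix, and CDC42 lay just below it. The cause of the turns was not tested.

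Called genes over total RNA in Whi3-TAP, 7 (19.3% of all genes), became 12 with no background correction (34.4%), 12 with flagged spots kept (26.7%) and 0 to 16 with 1 array left out (0% to 43.4%). Those in Whi3-dRRM-TAP, 10 (22.9%), became 18 under median centring (39.0%), 5 with no background correction (18.2%), 21 of 40 in the series matrix (48.4%) and 0 to 17 with 1 array left out (1.68% to 42.1%). The Whi3-dRRM-TAP columns of the series matrix had medians of 1.08 and 0.52, so a test against 0 there is not one against the bulk. Of the 21 calls there, 17 were higher. For total RNA, 3 genes (ACT1, ABP1 and CDC12) were called with no background correction (5.03% of all genes) and 0 under the other alternatives. In the immunoprecipitate, 16 of the 46 genes were above background on no Whi3-dRRM-TAP array (33.4% of all genes), which limits their net log ratios.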
